A study of Zea mays with 12 samples.

Results

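The genes described here encode 2 kinds of subunit of Polycomb repressive complex 2 (PRC2) in maize seeds. They were chosen by gene identifier, not by their values, and are 4 of the 41430 gene models in the deposited tables. Of these, fie1 (GRMZM2G118205) and fie2 (GRMZM2G148924) encode the WD40-repeat subunit FIE. The others, mez2 (GRMZM5G875502) and mez3 (GRMZM2G043484), encode Enhancer of zeste-type histone methyltransferases. GRMZM2G043484 was selected under the name mez1, but the reference table pairs it with mez3 and pairs mez1 with GRMZM2G157820. The reference names are used throughout, and mez1 is described beside its paralogs as a further PRC2 gene.

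Whole maize (Zea mays) seeds of 2 lines were profiled by RNA sequencing at 2 stages, 10 and 15 days after pollination (DAP). The wild type was the inbred line Q319, and the other line was a transgenic line called L100. There were 3 libraries in each of the 4 groups: wild type at 10 DAP, wild type at 15 DAP, L100 at 10 DAP and L100 at 15 DAP. The labels give no transgene, promoter, background or number of transformation events for L100, so no targeted gene could be checked, and a single event and the transgene cannot be told apart. They also do not say whether the libraries of a group are separate plants or pools; the p-values below reflect library-to-library spread, which may be technical.

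PRC2 places methyl groups on histone H3 at the mark H3K27me3, which is associated with stable gene repression. Its catalytic subunit is an Enhancer of zeste-type methyltransferase, held together with a FIE-type WD40 protein, a VEF-domain protein and an MSI1-type WD40 protein. In maize, fie1 is known as an imprinted gene expressed from the maternal allele in endosperm, whereas fie2 is active in both embryo and endosperm, and mez1 is also known to be imprinted in endosperm. These sums over both parental alleles carry no information on imprinting.

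Total counts ranged from 14014035 to 22370566 per library, and 3 counts corresponded to 0.152 to 0.23 CPM (TMM-scaled counts per 1000000). All 4 genes passed the filter on low counts and were among 24941 genes tested. Log2 levels of replicates correlated at 0.921 or above, with the lowest value between L100 10 DAP replicates 2 and 3. The most similar replicates were numbers 1 and 2 of L100 at 15 DAP, with a chi-square per gene of 6.68 against 11.5 to 41 in the other pairs, so they still differed by more than counting noise. At 10 DAP the summed level of 11 starchy endosperm markers was 7536 to 11931 CPM in wild type and 3165 to 12248 CPM in L100. At 15 DAP it was 65692 to 81992 and 69453 to 96618 CPM. Most of the 15 DAP sum was gz27, with means of 50246 CPM in wild type and 59649.6 CPM in L100. Gene by gene, the median log2 difference of L100 from wild type over the 11 markers was -0.38 at 10 DAP and -0.57 at 15 DAP. In the tests described below, 0 of the 11 were called at 10 DAP and 1, lower in L100, at 15 DAP. Of all genes tested, 3.0% and 6.66% were called at these stages. An unadjusted p under 0.05 was reached by 3 of the 11 at each stage, and DESeq2 called 0 and 1. Averaged over the stages, edgeR called 1 of the 11, against 9.39% of all genes tested. In that comparison 5 had an unadjusted p under 0.05, and DESeq2 called 4 (ae1, du1, fl2 and sh2). The summed level of the 7 embryo markers was 311 to 513 CPM in wild type and 232 to 662 CPM in L100 at 10 DAP. At 15 DAP it was 982 to 1259.7 and 1825 to 3075 CPM. Its largest part there was ole1, with means of 771 CPM in wild type and 1409.7 CPM in L100. For glb2 the 15 DAP means were 29.2 and 526 CPM, and for lec1 1.17 and 1.59 CPM. Of the 7, edgeR called 2 at 10 DAP and 1 at 15 DAP, all higher in L100, where 3.0% and 6.66% of all genes tested were called. An unadjusted p under 0.05 was reached by 2 and 3. The 7 pericarp and maternal markers had group medians of 157 to 209 CPM, with both cesa11 models at 0 in all groups. Their sum was 130.4 to 174 CPM in wild type and 175 to 270.3 CPM in L100 at 10 DAP, without overlap. At 15 DAP it was 133 to 199.8 and 197 to 211 CPM, with overlap. The largest parts were lip15 and cesa10, with means of 74.2 and 66.4 CPM in wild type and 97.4 and 87.8 CPM in L100 at 10 DAP. In wild type and L100 at that stage, cesa12 had means of 10.7 and 29.8 CPM. For p1 they were 1.1 and 0.571 CPM, and for gl1 1.37 and 1.35 CPM. Neither edgeR nor DESeq2 called any of the 5 tested markers between the lines at either stage. An unadjusted p under 0.05 was reached by 2 (cesa10 and cesa12) at 10 DAP and by 0 at 15 DAP. In these bulk samples, fewer cells of a type and less RNA per cell cannot be told apart. The part of seed composition in the results below was not tested.

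fie1 was highest in wild type at 10 DAP and lower at the later stage in both lines. The fie1 model lies on the minus strand of chromosome 4 at 35791085 to 35796720 in B73 RefGen_v3, the build given in the submitters' processing notes. In wild type at 10 DAP, replicates 1, 2 and 3 held 102, 97.1 and 96.3 CPM of fie1, and at 15 DAP they held 72, 54.4 and 59.1 CPM. In L100 the corresponding levels of fie1 were 79.2, 70 and 66.1 CPM at 10 DAP and 43, 53 and 56.7 CPM at 15 DAP. Each 10 DAP library was therefore above every 15 DAP library of the same line, and each wild-type library at 10 DAP was above every L100 library of that stage. At 15 DAP the lines overlapped. Group means of fie1 were 98.4 ± 2.95, 71.8 ± 6.71, 61.8 ± 9.1 and 50.9 ± 7.08 CPM (SD, n = 3) for wild type 10 DAP, L100 10 DAP, wild type 15 DAP and L100 15 DAP. The L100 10 DAP group overlapped wild type 15 DAP, its neighbour in this order, which in turn overlapped L100 15 DAP.

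fie2 showed no difference between stages that passed the test. Its model lies on the minus strand of chromosome 10 at 84106372 to 84110764. In wild type, fie2 was measured at 19, 16.7 and 13.7 CPM at 10 DAP and at 13, 17.5 and 15.2 CPM at 15 DAP. In L100, fie2 was measured at 19.1, 21.3 and 14.6 CPM at 10 DAP and at 20.3, 23.6 and 17.9 CPM at 15 DAP. The stages overlapped in both lines, as did the lines at 10 DAP. At 15 DAP every L100 library was above every wild-type library, by a margin of 17.9 against 17.5 CPM. The means of fie2 were, from high to low, 20.6 ± 2.86 CPM in L100 15 DAP, 18.3 ± 3.4 in L100 10 DAP, 16.5 ± 2.64 in wild type 10 DAP and 15.2 ± 2.25 in wild type 15 DAP (SD, n = 3), and each group overlapped its neighbour.

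mez2 was the E(z)-type gene with the clearest stage pattern. Its model lies on the plus strand of chromosome 9 at 135509440 to 135524230. In wild type, the level of mez2 was 29.5, 35.4 and 33.2 CPM at 10 DAP and 57.3, 58 and 49.7 CPM at 15 DAP. In L100 the level of mez2 was 35, 31.4 and 34 CPM at 10 DAP and 45.7, 44.8 and 46.3 CPM at 15 DAP. The 10 DAP libraries of the lines were interleaved, the 15 DAP libraries were above all of them, and at 15 DAP the wild-type libraries were above those of L100. The means of mez2 were 55 ± 4.58 CPM in wild type 15 DAP, 45.6 ± 0.782 in L100 15 DAP, 33.5 ± 1.88 in L100 10 DAP and 32.7 ± 2.99 in wild type 10 DAP (SD, n = 3).

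mez3 rose in wild type and was more variable between replicates. Its model lies on the minus strand of chromosome 1 at 49403114 to 49413157. In wild type, mez3 was measured at 15.7, 17.2 and 18.1 CPM at 10 DAP and at 29.7, 25.3 and 21.6 CPM at 15 DAP. In L100, mez3 was measured at 16.9, 13.2 and 19.1 CPM at 10 DAP and at 22.8, 18.8 and 15 CPM at 15 DAP. The stages were separated in wild type and overlapped in L100. The means of mez3 were 25.5 ± 4.07 CPM in wild type 15 DAP, 18.9 ± 3.91 in L100 15 DAP, 17 ± 1.25 in wild type 10 DAP and 16.4 ± 2.98 in L100 10 DAP (SD, n = 3), and each group overlapped its neighbour in this order. No other gene model overlapped fie1, fie2, mez1, mez2 or mez3. These genes are paralogs, and how reads that match more than 1 of them were assigned is not given in the sources used here.

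**Figure D1:**
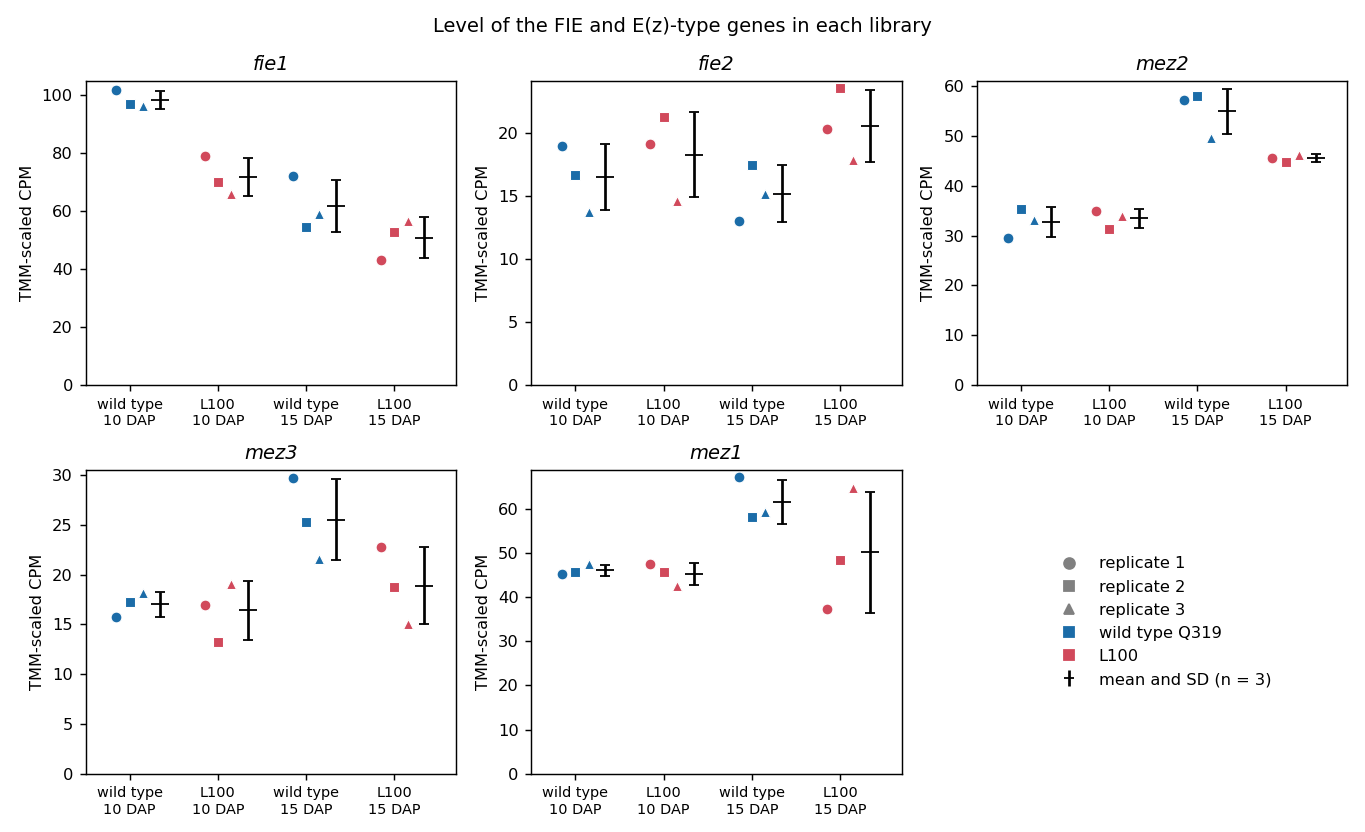
TMM-scaled CPM of fie1, fie2, mez2, mez3 and mez1 in each of the 12 libraries, by line and stage; points are libraries, and the bars give the mean and SD of 3. fie1 is highest in wild type at 10 DAP (96.3 to 102 CPM), and mez2 is higher at 15 DAP than at 10 DAP in both lines.

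The comparison of stages asked how PRC2 subunit genes change as the endosperm fills. In wild type, fie1 fell and both mez2 and mez3 rose from 10 to 15 DAP, and fie2 did not pass the test. The fall in fie1 was 1.59-fold (log2 fold change -0.67, SE 0.14, adjusted p = 0.0032 by edgeR's quasi-likelihood test with Benjamini-Hochberg adjustment). mez2 rose 1.68-fold (log2 fold change 0.75, SE 0.11, adjusted p = 0.00038), and mez3 rose 1.5-fold (0.58, SE 0.19, adjusted p = 0.033). For fie2 the log2 difference was -0.11 (SE 0.19, adjusted p = 0.69). Thus 3 of the 4 genes were called, 2 higher and 1 lower, where 31.4% of all genes tested were called in the same comparison. The median log2 fold change was 0.24 over the 4 genes and -0.01 over all genes. The mez3 call ended in 9 of 18 alternatives, among them library totals without TMM (log2 fold change 0.27, adjusted p = 0.32) and the omission of wild type 10 DAP replicate 1 (adjusted p = 0.14), replicate 2 (0.095) or replicate 3 (0.085), of wild type 15 DAP replicate 1 (0.12) or replicate 2 (0.072), or of L100 10 DAP replicate 1 (0.055).

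In L100, fie1 fell 1.41-fold (log2 fold change -0.50, SE 0.14, adjusted p = 0.02) and mez2 rose 1.36-fold (0.45, SE 0.11, adjusted p = 0.01) in the same edgeR fit. These were 2 of the 4 genes, against 24.9% of all genes tested. The log2 differences of mez3 (0.20, SE 0.19, adjusted p = 0.47) and fie2 (0.17, SE 0.19, adjusted p = 0.55) were not called. The fie1 call ended without L100 10 DAP replicate 1 (adjusted p = 0.068), without L100 15 DAP replicate 1 (0.082) and when the L100 groups were fitted alone (0.065). The mez2 call ended when library totals replaced TMM (log2 fold change 0.15, adjusted p = 0.29).

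Averaged over the lines, fie1 fell 1.5-fold (log2 fold change -0.58, SE 0.10, adjusted p = 0.0005), mez2 rose 1.51-fold (0.60, SE 0.08, adjusted p = 7.7e-05) and mez3 rose 1.31-fold (0.39, SE 0.13, adjusted p = 0.032). fie2 was not called (log2 difference 0.03, SE 0.13, adjusted p = 0.88). This was 3 of 4 genes, 2 higher and 1 lower, where 41.9% of all genes tested were called. The fie1 and mez2 calls held in all 17 alternatives, with log2 fold changes of -0.89 to -0.53 for fie1 and 0.29 to 0.63 for mez2. The mez3 call ended in 10 of the 17 (0.09 to 0.46). Library totals lowered the median of all genes by about 0.31 on the log2 scale in this comparison, so the changes are best read relative to the other genes.

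**Figure D2:**
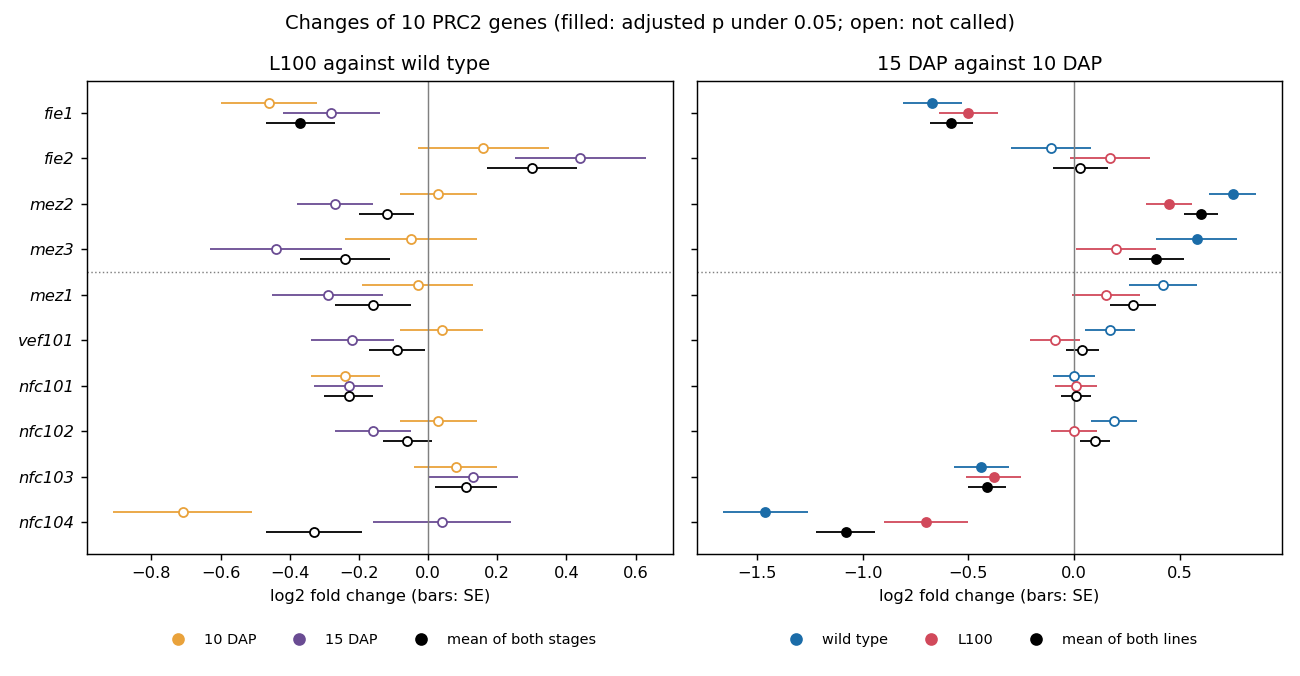
Log2 fold change with its standard error for fie1, fie2, mez2 and mez3 (above the dotted line) and for 6 other PRC2 genes, between lines (left) and between stages (right); filled points passed an adjusted p of 0.05. On the right, fie1 and nfc104 lie to the left of 0 and mez2 to the right in both lines.

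The comparison of lines asked whether PRC2 subunit genes differed between L100 and Q319 seeds. At 10 DAP none of the 4 genes was called by edgeR, where 749 of 24941, or 3.0% of all genes tested, were; 1 gene, fie1, had an unadjusted p under 0.05, and DESeq2 called that 1 gene. For fie1 at 10 DAP, the transgenic line was 1.37-fold lower (-0.46 on the log2 scale, SE 0.14, adjusted p = 0.094; 0.029 by DESeq2), with no overlap between the lines. The log2 differences at 10 DAP of fie2 (0.16, SE 0.19), mez2 (0.03, SE 0.11) and mez3 (-0.05, SE 0.19) were smaller than their errors, with adjusted p of 0.68, 0.9 and 0.91.

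At 15 DAP edgeR again called 0 of the 4 genes, against 6.66% of all genes tested. An unadjusted p under 0.05 was reached by 3 genes (fie2, mez2 and mez3), and DESeq2 called 0. fie2 was 1.35-fold higher in L100 (log2 difference 0.44, SE 0.19, adjusted p = 0.19), and mez2 was 1.21-fold lower (-0.27, SE 0.11, adjusted p = 0.15), both without overlap between the lines. mez3 was 1.35-fold lower (-0.44, SE 0.19, adjusted p = 0.19) and fie1 1.22-fold lower (-0.28, SE 0.14, adjusted p = 0.24), with overlap in both. The median log2 difference of the 4 genes was -0.28 at 15 DAP and -0.01 at 10 DAP, against -0.01 and 0.01 over all genes.

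Averaged over the stages, fie1 was 1.29-fold lower in the transgenic line (-0.37 on the log2 scale, SE 0.10, adjusted p = 0.034). It was the 1 gene of the 4 called, where 9.39% of all genes tested were called, and DESeq2 also called it. That call ended in 11 of 17 alternatives while the log2 fold change stayed between -0.41 and -0.29. The adjusted p was 0.056 to 0.077 without any one of wild type 10 DAP replicates 1, 2 and 3, wild type 15 DAP replicates 1 and 3, L100 10 DAP replicates 2 and 3, and L100 15 DAP replicates 1 and 2. The averaged differences of fie2 (0.30, SE 0.13, adjusted p = 0.18), mez3 (-0.24, SE 0.13, adjusted p = 0.28) and mez2 (-0.12, SE 0.08, adjusted p = 0.35) were not called.

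The interaction, the line difference at 15 DAP minus that at 10 DAP, tested whether the lines differed in their course. None of the 4 genes was called by edgeR, 0 had an unadjusted p under 0.05 and DESeq2 called 0, where 0.545% of all genes tested were called. The log2 interaction was 0.17 (SE 0.19) for fie1, 0.28 (SE 0.26) for fie2, -0.30 (SE 0.15) for mez2 and -0.38 (SE 0.27) for mez3, with adjusted p of 0.7, 0.65, 0.34 and 0.51. The rise of mez3 called in wild type and not in L100 was therefore not shown to differ between the lines. The stage and line comparisons share libraries, so their values are set side by side only.

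fie2 lies in a segment of chromosome 10, from 70 to 100 Mb, that held 282 tested genes. Of these, 3.55% were called between the lines at 10 DAP, 20.6% at 15 DAP and 29.1% averaged over the stages. Over all genes tested, 3.0%, 6.66% and 9.39% were called in the same comparisons. fie2 was not called in any of these comparisons. No source independent of these data is given for the bounds of the segment, so its shares are a description only.

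Levels of different genes were compared per length with the deposited FPKM. fie1 had a mean of 66.4 ± 2.13 FPKM in wild type 10 DAP, 45.3 ± 8.82 in L100 10 DAP, 38.7 ± 4.49 in wild type 15 DAP and 32.4 ± 3.86 in L100 15 DAP (SD, n = 3). The FPKM of fie2 was 9.09 ± 1.18, 9.78 ± 2.03, 9.44 ± 2.52 and 10.3 ± 1.41 in the same order. fie1 therefore exceeded fie2 in every library, and the FPKM ratio of fie1 to fie2 averaged 7.4 ± 1.06 in wild type 10 DAP, 4.76 ± 1.25 in L100 10 DAP, 4.38 ± 1.65 in wild type 15 DAP and 3.21 ± 0.766 in L100 15 DAP. As a share of the summed FPKM of both genes, fie1 made up 87.3%, 87.1% and 89.6% in the wild-type libraries at 10 DAP and 86%, 74.4% and 80.3% at 15 DAP. In L100 the share of fie1 was 82.9%, 77.7% and 85.7% at 10 DAP and 72.1%, 75% and 80.3% at 15 DAP. On the FPKM scale the wild-type 10 DAP libraries had the 3 highest shares, and the other groups overlapped one another. Both statements change with counts divided by the length of the gene model, a scale chosen after seeing the data. There, wild type 15 DAP replicate 1 (87.1%) was above wild type 10 DAP replicate 1 (86.8%), and L100 at 10 DAP (80.1% to 84.7%) was above L100 at 15 DAP (72.1% to 79.5%) without overlap. These shares are ratios of chosen genes and were given no test. By rank, fie1 lay between the 75.3 and 88.3 percentiles of FPKM among tested genes, and fie2 between the 43.3 and 55.8 percentiles.

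Among the E(z)-type genes, the deposited FPKM put mez1 above mez2 and mez2 above mez3 in every library, an order that did not hold throughout on the other per-length scale. Mean shares of their summed FPKM in wild type 10 DAP were 57.3 ± 4.35% for mez1, 28.7 ± 3.5% for mez2 and 14 ± 0.874% for mez3 (SD, n = 3). In L100 15 DAP these shares were 51.4 ± 10.3%, 34.2 ± 5.49% and 14.3 ± 4.91%, and these FPKM shares overlapped between the 2 groups. The FPKM ratio of mez2 to mez3 averaged 2.05 ± 0.133 in wild type 10 DAP and 2.5 ± 0.471 in L100 15 DAP. mez3 made up 32.9 ± 1.43%, 31.4 ± 4.31%, 30.9 ± 2.35% and 29 ± 3.97% of the mez2 and mez3 pair in wild type 10 DAP, L100 10 DAP, wild type 15 DAP and L100 15 DAP. Counts per length of the gene model gave mez1 a mean share of 46 ± 1.8% and mez2 one of 35.7 ± 1.78% in wild type 10 DAP. At 15 DAP these shares were 41.2 ± 2.14% and 40.4 ± 2.04% in wild type, and 41.2 ± 7.88% and 41.6 ± 3.03% in L100. On this scale mez2 exceeded mez1 in wild type 15 DAP replicate 2 and in L100 15 DAP replicates 1 and 2. The mez2 share was then separated by stage, with 34.2% to 37.7% at 10 DAP against 38.7% to 42.6% at 15 DAP in wild type, and 36.5% to 37.1% against 38.6% to 44.6% in L100. The length implied by the deposited values for mez1 ranged from 0.72 to 1.30 times its median library, and for L100 10 DAP replicate 2 it was above the median for all 5 genes (1.06 to 1.28).

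**Figure D3:**
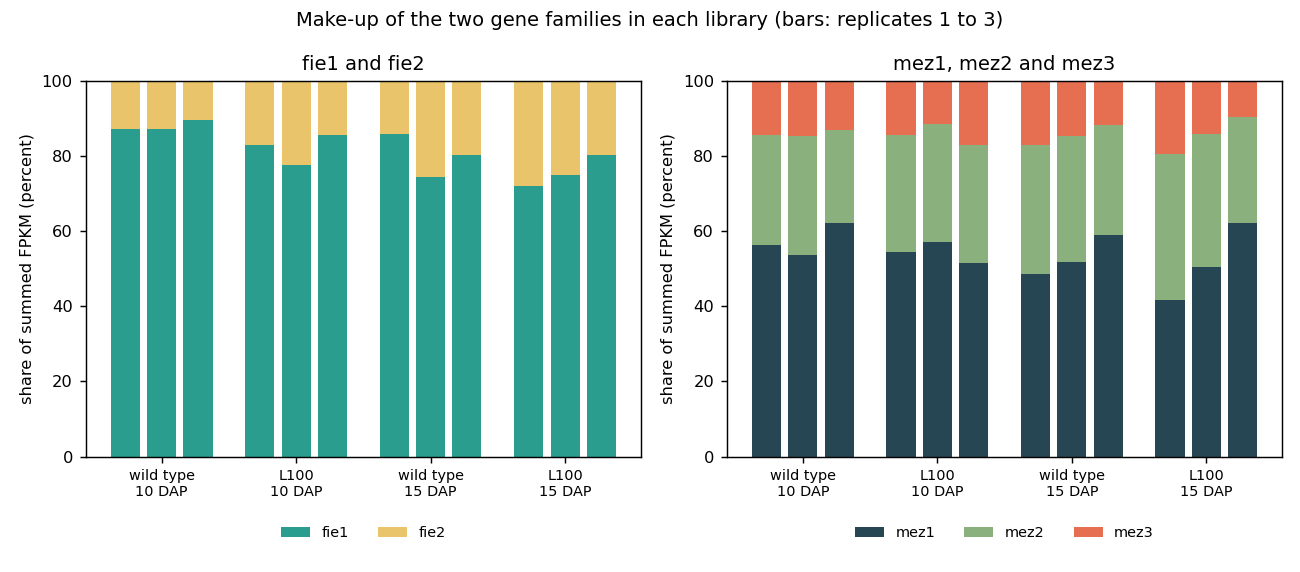
Share of summed FPKM, in percent, taken by fie1 and fie2 (left) and by mez1, mez2 and mez3 (right); each bar is 1 library, grouped by line and stage. The fie1 share ranges from 72.1% in an L100 15 DAP library to 89.6% in a wild type 10 DAP library.

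The other PRC2 genes found by name were mez1, vef101 (VEF-domain subunit) and nfc101, nfc102, nfc103 and nfc104 (MSI1-type WD40 proteins, which also serve in other chromatin complexes). From 10 to 15 DAP averaged over lines, edgeR called 2 of these 6 genes, both lower, where 41.9% of all genes tested were called. DESeq2 called 3, with mez1 as the further gene, higher (log2 fold change 0.30, adjusted p = 0.041). nfc104 held 51.1, 48.6 and 51.8 CPM in wild type at 10 DAP and 13.4, 18.3 and 23.4 CPM at 15 DAP. In L100, nfc104 held 31.3, 26.9 and 34.2 CPM at 10 DAP and 16.7, 23.8 and 16.3 CPM at 15 DAP. The stages did not overlap in either line, and at 10 DAP all wild-type libraries were above those of L100. nfc104 fell 2.74-fold in wild type (log2 fold change -1.46, SE 0.20, adjusted p = 0.00031) and 1.62-fold in L100 (by -0.70, SE 0.20, adjusted p = 0.024). The L100 call ended when either replicate 1 or replicate 3 was left out of the 10 DAP or the 15 DAP group of that line (adjusted p 0.056 to 0.091). Its line difference at 10 DAP was -0.71 on the log2 scale (SE 0.20, adjusted p = 0.077), which became a call with DESeq2 (0.017), with the 10 DAP groups alone (0.029) or without wild type 15 DAP replicate 1 (0.045). The interaction of nfc104 was 0.76 (SE 0.28, adjusted p = 0.21).

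nfc103 fell by 0.44 on the log2 scale in wild type (SE 0.13, adjusted p = 0.02) and by 0.38 in L100 (SE 0.13, adjusted p = 0.043). Its fall averaged over lines was 1.33-fold (log2 fold change -0.41, SE 0.09, adjusted p = 0.003). The wild-type call ended without wild type 10 DAP replicate 3 (adjusted p = 0.053) or wild type 15 DAP replicate 1 (0.077) or replicate 2 (0.051), and the L100 call ended in 11 of 18 alternatives. Both nfc103 and nfc104 overlap a gene model on the opposite strand (GRMZM2G090217, up to 84.1 CPM, and GRMZM2G032376, up to 41.6 CPM). The strand setting is not given in the sources used here, so reads of overlapping models cannot be told apart.

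mez1 held 45.2 to 47.5 CPM in wild type at 10 DAP, 58.1 to 67.3 CPM at 15 DAP, and 42.5 to 47.4 and 37.4 to 64.6 CPM in L100 at 10 and 15 DAP. The wild-type stages did not overlap, while L100 15 DAP spanned both. The stage difference of mez1 was 0.42 on the log2 scale in wild type (SE 0.16, adjusted p = 0.069) and 0.15 in L100 (SE 0.16, adjusted p = 0.53), and averaged over lines it was 0.28 (SE 0.11, adjusted p = 0.065). The wild-type difference of mez1 became a call with the wild-type groups alone (adjusted p = 0.0092), without L100 15 DAP replicate 1 (0.026) or replicate 3 (0.016), and with DESeq2 (0.049). The averaged difference became one without L100 15 DAP replicate 1 (0.37, adjusted p = 0.0091) and with DESeq2, and turned to -0.03 with library totals. vef101 stayed between 23.1 and 32.2 CPM over all libraries, and its averaged stage difference was 0.04 (SE 0.08, adjusted p = 0.71). Per length, the highest group means of these 6 genes were those of nfc102, with 81.2 to 91.4 FPKM, and nfc101, with 62.2 to 76 FPKM.

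Between the lines averaged over stages, edgeR called 0 of these 6 genes, where 9.39% of all genes tested were called. Of the 6, 2 had an unadjusted p under 0.05 and DESeq2 called 1, nfc101. The difference of nfc101 was -0.23 (SE 0.07, adjusted p = 0.051; 0.0027 by DESeq2). For nfc104 it was -0.33 (SE 0.14, adjusted p = 0.16), and for mez1 -0.16 (SE 0.11, adjusted p = 0.41). Median log2 differences over the 6 genes were -0.13 between lines and 0.02 between stages.

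Further chromatin genes and KNOX homeobox genes, which in Arabidopsis are known Polycomb targets, were read from the same fits. Of all genes tested, 9.39% were called between lines averaged over stages and 41.9% between stages averaged over lines. Of 7 SET-domain and trithorax-type genes tested, 2 rose between stages averaged over lines: set105 (log2 fold change 0.54, SE 0.09, adjusted p = 0.00056) and sdg107 (0.25, SE 0.07, adjusted p = 0.017). Between the lines averaged over stages, none of the 7 was called by edgeR or DESeq2, and 1, sdg107, had an unadjusted p under 0.05. Of 8 PHD-finger and jumonji genes, PHD2 rose (0.43, SE 0.14, adjusted p = 0.024) while PHD16 (-0.54, SE 0.09, adjusted p = 0.00081) and JMJ13 (-0.29, SE 0.09, adjusted p = 0.021) fell. PHD2 was the 1 gene of the 8 called between lines averaged over stages, lower in L100 (-0.50, SE 0.14, adjusted p = 0.042), a call lost in 11 of 17 alternatives. Under library totals the stage difference of sdg107 turned to -0.05, and the stage calls of set105 (adjusted p = 0.065 by edgeR) and PHD2 (0.44) ended. The PHD2 stage call was lost in 4 of 17 alternatives.

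Among 6 DNA methylation genes, the methyltransferase genes met2 (log2 fold change -1.72, SE 0.13, adjusted p = 2.1e-06) and DMT105 (-0.92, SE 0.13, adjusted p = 0.00023) fell between stages. dmt106 rose (0.60, SE 0.11, adjusted p = 0.00095), as did mop1 (0.42, SE 0.11, adjusted p = 0.0099), an RNA-dependent RNA polymerase gene named after its value was seen. Under library totals 2 of these 4 calls remained, and that of dmt106 ended (adjusted p = 0.052 by edgeR). Between the lines averaged over stages, edgeR and DESeq2 each called 0 of the 6, and 0 had an unadjusted p under 0.05. Medians of this list were -0.10 between lines and -0.04 between stages.

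Of the 9 KNOX genes, 3 were higher in L100 averaged over stages and none lower, and 4 fell between stages and none rose. kn1, a meristem homeobox gene, was higher in L100 (by 1.40 on the log2 scale, SE 0.23, adjusted p = 0.0041), as was lg3 (0.63, SE 0.17, adjusted p = 0.036), a call lost in 8 of 17 alternatives. From 10 to 15 DAP, kn1 (-1.30, SE 0.23, adjusted p = 0.00086), lg4 (-0.90, SE 0.16, adjusted p = 0.00096) and knox7 (-0.31, SE 0.10, adjusted p = 0.021) fell, and so did knox3 (-1.63, SE 0.58, adjusted p = 0.04), named after its value was seen. The level of knox3 was low, with means of 0.487 CPM in wild type and 1.26 CPM in L100 at 15 DAP. In neither line alone did its stage difference reach an unadjusted p under 0.05. The median log2 fold change of the 9 genes was 0.59 between lines and -0.53 between stages. kn1 is also 1 of the 7 embryo markers, and 2 of those 7, kn1 itself among them, were higher in L100 averaged over stages. The part of embryo content in the KNOX values was not tested. These counts stand beside backgrounds of 9.39% of genes called between lines and 41.9% between stages.

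**Figure D4:**
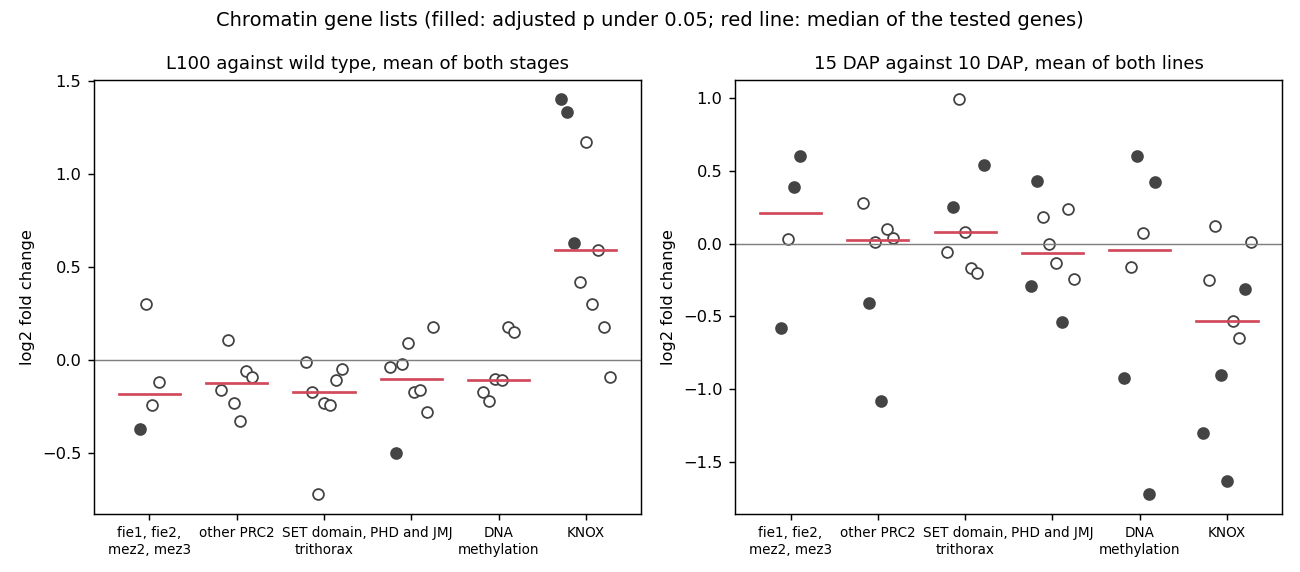
Log2 fold change of each tested gene in 6 gene lists, between lines averaged over stages (left) and between stages averaged over lines (right); filled points passed an adjusted p of 0.05 and red lines are list medians. The KNOX genes have the highest median on the left (0.59) and the lowest on the right (-0.53).

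The genes whose levels most resembled each of the 4 were taken from 1470 named genes with a mean of at least 5 CPM, by Pearson's r of log2 CPM over the 12 libraries. Groups and depth are shared by these points, so r is a description. The closest to fie1 were hdt102, an HD2-type histone deacetylase gene (r = 0.95), meg1, a gene of the basal endosperm transfer layer (0.92), and asn1, an asparagine synthetase gene (0.92). hdt102 had means of 449, 299, 254 and 244 CPM in wild type 10 DAP, L100 10 DAP, wild type 15 DAP and L100 15 DAP, the same order as fie1. The closest to mez2 were pls1, ARF23 and bZIP43 (r = 0.98 each), and the closest to mez3 were hk2 (0.91), hox3 (0.89) and the starch synthase gene du1 (0.89). For fie2 the highest values were lower: 0.72 for Ca-5, 0.71 for MYB167 and 0.69 for sbp9.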

How the data were processed

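The 12 deposited tables each held 1 library with an expected count, an FPKM and a normalized signal for 41430 gene models. The submitters' processing notes name Bowtie 0.12.2 and the build B73 RefGen_v3; the quantifier, annotation release, strand and filters were not given in the sources used here. The deposited expected counts were whole numbers and were tested as such. They seem to be estimates rounded up, since sdg113 in L100 10 DAP had minima of 0.0522 CPM and 2.60e-40 FPKM. How they were made is not given in the sources used here. The deposited FPKM served to compare genes within a library, and no test used it. The length its values imply varied between libraries and between genes. FPKM means, ratios and shares set side by side between groups carry this variation. The deposited normalized signal was used only for that length check.

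Counts were fitted in R 4.3.3 with edgeR 4.0.16 (TMM, filterByExpr, robust quasi-likelihood, 1 mean per group, 12 libraries). Two-sided tests in 7 comparisons were adjusted by Benjamini-Hochberg over 24941 genes, with a threshold of 0.05. SE is the log2 fold change divided by the root of F. Comparisons averaged over stages or lines are the means of the 2 differences. Alternatives were DESeq2 1.42.0, RLE scaling, library totals, no filter, a replicate block, the groups compared alone, and each library left out. Counts per length, as another scale for the shares, were chosen after seeing the data. The fitting code was tested on simulated data.

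Names came from a RefSeq table of another assembly, used for names only. Text names the 4 genes, all PRC2 genes found, the 3 smallest p-values per further list in the averaged comparisons, and the 3 genes most like each of the 4; exceptions are stated, and 1 gene is not reported here. The genes, lists and tests were chosen with earlier results of these data known. Replicate numbers did not pair libraries: correlations of same-numbered libraries' deviations from group means were -0.11 to 0.04 in 18 pairs. No sequence is shown.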

Additional observations from a re-analysis of the deposited data

How the results depend on the processing

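Over 492 combinations of the 4 genes, 7 comparisons and an alternative, 446 kept direction and side of the threshold, 34 lost a call, 1 gained one and 11 reversed; the cause was not tested. The number of the 4 genes called became 1 at 10 DAP with DESeq2 (0 in the reported analysis). In L100 across stages it became 1 with library totals, 1 with the groups alone and 1 to 2 with a library left out (2 reported). Between lines averaged over stages it became 0 with library totals, 0 with the replicate block and 0 to 1 with a library left out (1 reported). With the replicate block, 2 genes were called in wild type across stages (3 reported; mez3 was lost, adjusted p = 0.051), and the counts of the other 5 comparisons did not change.

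With library totals, mez3 at 10 DAP turned to 0.02 on the log2 scale. In L100 across stages, fie2 turned to -0.13, mez3 to -0.08 and mez1 to -0.16. Averaged over lines, fie2 turned to -0.28, mez1 to -0.03, nfc101 to -0.30 (adjusted p = 0.0052), nfc102 to -0.21, vef101 to -0.26 (adjusted p = 0.024) and sdg107 to -0.05. Between lines, nfc102 turned to 0.02. Without filter, nfc101 turned to -0.00 across stages. With 1 library left out, mez3 at 10 DAP ranged from -0.19 to 0.07, mez2 at 10 DAP from -0.06 to 0.08 (also -0.03), mez1 in L100 across stages from -0.07 to 0.33, averaged fie2 across stages from -0.05 to 0.08 and averaged nfc101 from -0.02 to 0.04. Of the genes that reversed, sdg107 alone had been called.

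Counts over all genes also moved. At 10 DAP they were 749 in the reported analysis, 2006 with DESeq2, 390 with the block and 236 to 1261 with a library left out. At 15 DAP they were 1662, 2889, 1073 and 615 to 1869, for the interaction 136, 1076, 26 and 11 to 221 (74 with library totals), and between lines averaged over stages 2342, 3737, 1667 and 1407 to 2640. In L100 across stages, 6202 calls became 4192 with its groups alone. With library totals, the other PRC2 genes called across stages went from 2 to 4, the DNA methylation genes from 4 to 2 and the imprinted genes from 2 to 1. With a library left out, the KNOX genes called went from 4 to as few as 2 and SET-domain genes from 2 to as many as 4. With 3 libraries a group, fie2 and mez3 had an SE of 0.19 on the log2 scale in the comparisons of 2 groups.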

Other observations

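Across the 12 libraries, log2 levels of mez2 and mez3 correlated at r = 0.78 (Spearman's rho 0.69), and fie1 with mez2 at -0.66 (rho -0.59). The remaining pairs of the 4 genes lay between -0.46 and -0.18. These values are descriptions, since the libraries share groups and depth.

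Of 3 kernel genes known to be imprinted that were found by name, 2 were tested. meg1, a gene of the basal endosperm transfer layer, fell from 10 to 15 DAP (log2 fold change -1.61, SE 0.18, adjusted p = 4.6e-05 by edgeR), and NRP1 rose (0.69, SE 0.19, adjusted p = 0.013). The NRP1 call ended under library totals (adjusted p = 0.11). Between lines averaged over stages, edgeR called 0 of the 2, where 9.39% of all genes tested were called. Both had an unadjusted p under 0.05 and DESeq2 called 1, meg1. Their log2 differences were -0.53 (SE 0.18, adjusted p = 0.088) for meg1 and -0.46 (SE 0.19, adjusted p = 0.15) for NRP1. The 7 markers of the basal endosperm transfer layer, meg1 among them, summed to 1355 to 1896 CPM in wild type and 914 to 1693 CPM in L100 at 10 DAP. At 15 DAP the sums were 535 to 882 and 708 to 849.6 CPM, so the lines overlapped at both stages. Medians were 1500.1 and 1237 CPM at 10 DAP and 850.4 and 786 CPM at 15 DAP, with ebe1 at 0 in both lines at 15 DAP. The largest part was incw2, with means of 1139 and 962 CPM at 10 DAP. At 15 DAP betl3 (42.8 and 82.2 CPM), betl4 (34.4 and 48.2) and mrp1 (4.4 and 7.11) had higher means in L100. There meg1 (46.7 and 31.5), bap2 (46.6 and 35) and incw2 (581 and 577) had lower ones. The part of this layer in the values of fie1, meg1 and the other genes was not tested.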
